A study of Mus musculus with 59 samples.

Results

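The comparison was how the response of infarcted mouse left ventricle shifted between 4 h and 24 h. It used 12 of the 59 arrays of the series: 3 of infarcted tissue and 3 of sham tissue at 4 h, and 3 of each at 24 h, chosen by the region and time that the labels give. For each gene the infarct effect is the mean log2 value of the infarct arrays minus that of the sham arrays at the same time. The shift is the infarct effect at 24 h minus the infarct effect at 4 h. A gene is said below to have risen or fallen in the shift, or in another comparison named in the sentence, only where the adjusted p of the limma fit was below 0.05. Values after ± are standard errors of the fit unless marked SD. The shift was tested for 6668 genes, of 8251 with a probe set of their own.

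The infarct pieces were of the ventricle wall from the level of the left anterior descending artery down to the apex, taken from mice with a myocardial infarction. The sham pieces were of the wall above that artery, in mice that had the sham operation. So the control differs from the infarct pieces in region as well as in surgery, at both times alike, and a piece of the lower region of sham hearts is used below as another control. The sources used here give neither the strain, age and sex of the mice nor whether each piece came from its own mouse, so p-values measure the spread between these arrays. Arrays of a group are called array 1, 2 and 3 in the order of the number in their titles. Values are intensities in arbitrary units on a linear scale, and their precision is limited by the number of arrays. What a title number stands for is not stated. No number is shared among the 4 groups, so any handling tied to the numbers cannot be told apart from group.

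After a coronary artery is closed, heart muscle cells downstream of it lose oxygen within minutes and switch on early response genes, heat shock proteins and stress pathways. Neutrophils then enter the dying tissue, followed by monocytes that become macrophages, and both bring proteases that break down matrix. Surviving cells meanwhile lower the genes of mitochondrial energy supply and of contraction.

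The trimmed mean intensities of the 12 arrays ran from 499.26 to 499.85. The 3′ to 5′ ratios of the Gapdh control probe sets ran from 0.815 to 0.904 and those of actin, a measure of RNA quality too, from 1.2 to 1.665. The actin ratios of 24 h and 4 h overlapped in infarct tissue (1.248 to 1.483 and 1.405 to 1.622) and in sham tissue (1.2 to 1.665 and 1.243 to 1.572). The summed intensity of 9 heart muscle cell markers lay between 138743 and 211552 on all 12 arrays, which are labelled ventricle. Infarct arrays 1, 2 and 3 at 24 h gave 138743, 156166 and 143875, below all the other arrays, which began at 168168. The part of this difference in the falls below was not tested. The summed atrial markers lay between 176 and 365 on 11 arrays and at 926 on sham array 2 at 24 h.

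In the shift, 572 genes rose and 568 fell, 8.58% and 8.52% of the genes tested and 17.1% in all. An unadjusted p below 0.05 was reached by 1945 genes. Shifts of at least 2-fold were seen in 274 of the genes that rose (4.11% of the genes tested) and in 167 of those that fell (2.50%). At 4 h the infarct effect itself passed for 795 genes (11.9%, with 5.23% higher and 6.69% lower) and at 24 h for 2838 (42.6%, with 18.6% higher and 24.0% lower). Without infarct array 2 at 4 h the 4 h effect passed for 522 genes, and without any other single array of that time for 549 to 595. Of the 572 genes that rose, 413 had no called effect at 4 h and were higher in infarct at 24 h, 75 were higher at both times, 20 were lower at 4 h and higher at 24 h, and 35 were lower at 4 h with no call at 24 h. Of the 568 genes that fell, 475 had no called effect at 4 h and were lower at 24 h, 34 were lower at both times, 18 were higher at 4 h and lower at 24 h, and 21 were higher at 4 h with no call at 24 h. The remaining 29 rises and 19 falls were called at neither time, and 1 fall was higher at both. The effects at both times make up the shift, so this split is a description.

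**Figure D1:**
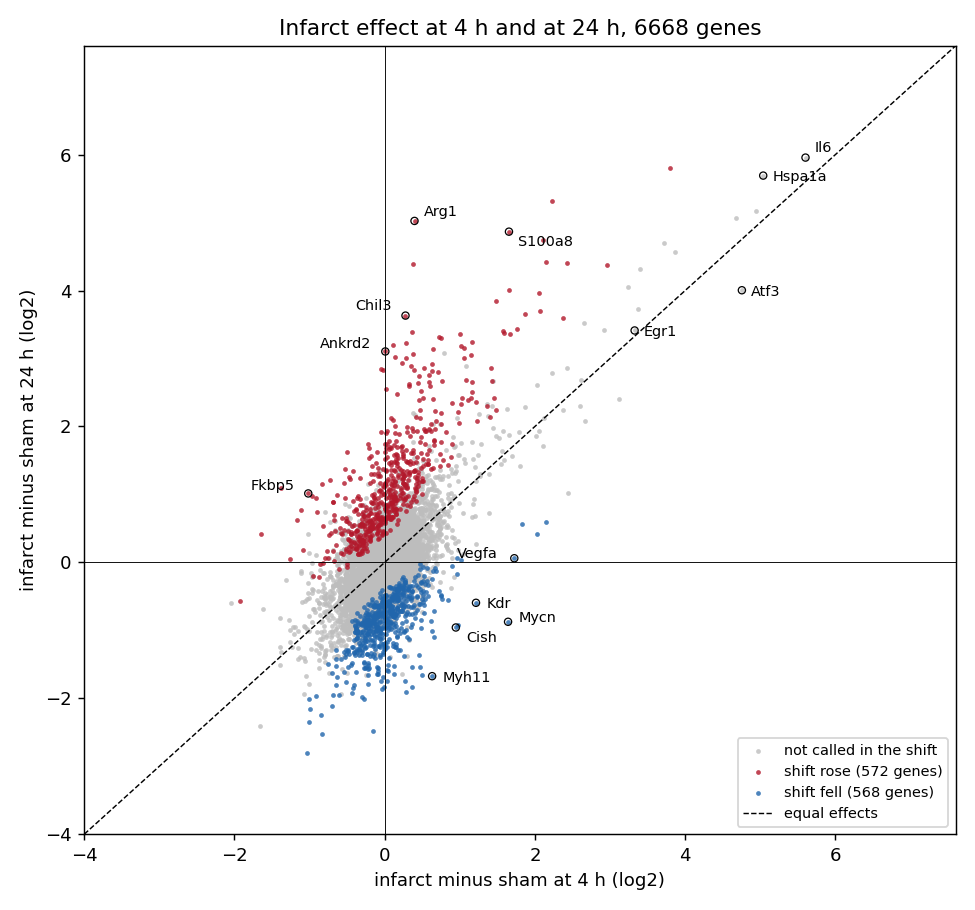
Infarct effect at 4 h (horizontal axis) against the infarct effect at 24 h (vertical axis), both in log2 units, for the 6668 genes tested. The 572 genes that rose lie above the dashed line of equal effects and the 568 that fell lie below it; Il6, Hspa1a, Egr1 and Atf3 lie near the line, far from 0.

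Read by region, the movement was mostly in the infarct arrays. Infarct tissue at 24 h exceeded infarct tissue at 4 h in 482 of the 572 genes that rose, where 920 of all genes tested (13.8%) were higher, and was lower in 465 of the 568 that fell, where 1001 of all genes were lower; 28.8% passed in either direction. Sham tissue fell from 4 h to 24 h in 65 of the genes that rose, against 2.07% of all genes, and rose in 45 of those that fell, against 1.63% (3.70% in either direction). These comparisons share arrays with the shift and are given as its parts. The arrays at 48 h were not part of the difference that gives the shift, but they entered the shared estimate of spread in the fit. At 48 h, 475 of the 572 genes that rose were higher in infarct than in sham tissue and 10 were lower, against 25.0% and 25.9% of the genes tested (50.9% together). Of the 568 genes that fell, 421 were lower at 48 h and 17 were higher. At 1 h, 26 of the genes that rose were higher in infarct tissue and 16 were lower, against 3.66% and 3.12% of all genes (6.78% together). Of the genes that fell, 21 were lower at 1 h and 31 were higher.

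The count of calls rested in part on infarct array 2 at 24 h. Without it 404 genes rose and 358 fell, of which 754 were among the 1140 calls of the full fit; without any other single array of the 12 the counts lay between 454 and 652 for rises and between 439 and 641 for falls. With 1 array per time of the lower region of sham hearts as the control, median shifts of some lists used below moved toward 0 or past it. The median was 0.34 for cytokines and chemokines (0.92 in the full fit) and -0.057 for immediate early genes (0.186). For neutrophil genes it was 1.22 (1.37) and for oxidative phosphorylation -0.488 (-0.384).

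Genes of inflammatory cells led the rises. Arg1, the arginine-consuming enzyme of activated macrophages, read 14.2, 39.7 and 21.5 on the infarct arrays at 4 h and 6.4, 9.9 and 6.3 on the sham arrays. At 24 h it read 3169, 1828 and 725 in infarct and 9.2, 10.5 and 10.4 in sham tissue. The infarct arrays at 24 h lay far above all others, none of which passed 39.7, and the shift was 4.63 ± 0.86 log2 units (adjusted p = 0.0002). Adam8, a membrane protease of leukocytes, read 1362, 2118 and 613 in infarct at 24 h and no more than 49.4 on any of the other 9 arrays, with a shift of 4.01 ± 0.59 (adjusted p = 7.8e-06). Chil3, a secreted lectin of myeloid cells, read 94.9, 71.8 and 67.8 in infarct at 4 h and 2854, 1970.0 and 473 at 24 h, with a shift of 3.35 ± 0.59 (adjusted p = 9.3e-05). In bulk tissue, more cells of a type and more RNA per cell cannot be told apart. Since 45.6 was added before log2 was taken, these differences understate changes that start near background.

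S100a8, which forms the neutrophil protein calprotectin with S100a9, was higher in infarct tissue at both times. It read 855, 654 and 995 in infarct and 239, 203 and 251 in sham tissue at 4 h. At 24 h the infarct arrays read 5089.5, 7460.4 and 2230.5 and the sham arrays 109.7, 125 and 112. No infarct array overlapped a sham array at either time, and the infarct effect went from 1.66 ± 0.46 to 4.87 ± 0.46, a shift of 3.21 ± 0.65 (adjusted p = 0.00049). S100a9 had a shift of 3.09 ± 0.75 (adjusted p = 0.003). Of 23 tested genes of the neutrophil list, 13 rose and 0 fell, against 8.58% and 8.52% of all genes. Their median shift was 1.37, where the median of all genes was -0.005. The array held 27 genes of the list, and without the filter on intensity 13 rose and 0 fell. Besides S100a8, the list held Fpr2, a receptor for formylated peptides (2.68 ± 0.35, adjusted p = 1.2e-06), and Pglyrp1, a granule protein that binds peptidoglycan (1.61 ± 0.31, adjusted p = 0.00027). Mmp8, the neutrophil collagenase, had a shift of 1.71 ± 0.35 (adjusted p = 0.00056).

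Of 30 macrophage and monocyte genes, 9 rose and 0 fell, against 8.58% and 8.52% of all genes. Their median shift was 0.81, and 15 rose without infarct array 3 at 24 h. Fcgr2b, the inhibitory receptor for IgG, read 205, 136 and 174 in infarct at 4 h and 1467, 1283 and 650.7 at 24 h, against 94.6, 111 and 106 in sham tissue at 24 h. All 3 infarct arrays at 24 h exceeded the other groups, with a shift of 2.71 ± 0.45 (adjusted p = 4.2e-05). Lgals3, or galectin 3, had a shift of 2.95 ± 0.69 (adjusted p = 0.0023). Hmox1, the heme-degrading enzyme, read 2343, 2456 and 2347 in infarct and 1339, 979 and 1202 in sham tissue at 4 h, and 7261, 8342 and 6781 and 582, 704 and 791 at 24 h. Its groups did not overlap at either time, and the shift was 2.36 ± 0.28 (adjusted p = 2.5e-07).

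The marker sums moved with these genes. Summed intensities of 10 neutrophil markers on the array lay between 3005 and 3563 in infarct tissue at 4 h and between 1104 and 1551 on the 6 sham arrays. At 24 h they were 15430, 21253 and 9932 on infarct arrays 1, 2 and 3. Summed over 12 macrophage and monocyte markers the infarct arrays at 24 h read 17521, 20114 and 10706, the infarct arrays at 4 h 10233 to 10578 and the sham arrays 7193 to 9754. Infarct array 3 at 24 h was the lowest of its group in both sums, and so it was for Arg1, Adam8, Chil3, S100a8 and Fcgr2b. Of the tested markers, 6 of 9 neutrophil and 1 of 12 macrophage markers rose in the shift, and 0 of 9 heart muscle markers passed. The part of these cells in the results that follow was not tested.

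**Figure D2:**
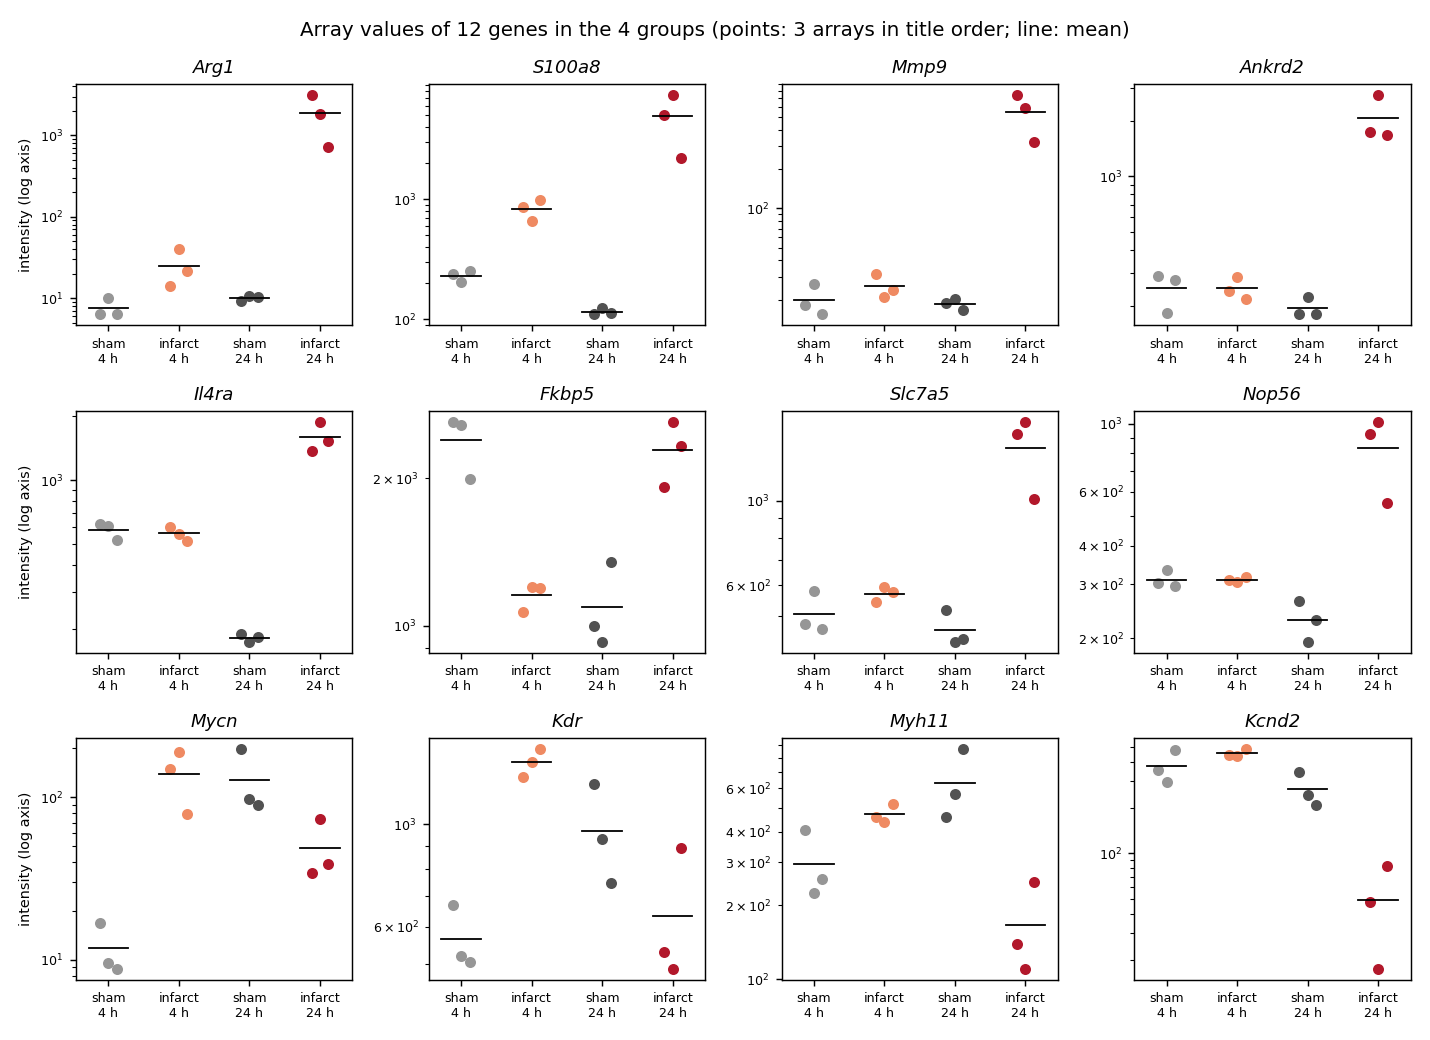
Intensity on a log axis of 12 genes in the 12 arrays, in the order sham and infarct at 4 h, then sham and infarct at 24 h; each point is 1 array, in title order, and each line is the mean of 3. In Arg1, S100a8, Mmp9, Ankrd2, Slc7a5 and Nop56 the infarct arrays at 24 h lie above all others, in Il4ra and Fkbp5 the sham arrays fall from 4 h to 24 h, and in Mycn, Kdr and Myh11 sham tissue is higher at 24 h than at 4 h by its mean.

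Cytokines are the signals that leukocytes and tissue cells exchange. Of 27 tested cytokine and chemokine genes 11 rose and 2 fell, against 8.58% and 8.52% of all genes, with a median shift of 0.92. The array held 38 genes of the list, and without the filter on intensity 12 rose and 2 fell. With the filter, 6 rose without infarct array 2 at 24 h, 7 without infarct array 1 at 24 h, and 6 when the added value was 0.05 times the median. Ccl4, which attracts monocytes, rose by 2.54 ± 0.36 (adjusted p = 4.4e-06), and Ccl9 by 2.32 ± 0.47 (adjusted p = 0.00048). Il1b, the main interleukin 1 of myeloid cells, read 242, 270.5 and 309 in infarct at 4 h and 2104, 2978 and 714 at 24 h, against 14.1 to 55.3 in sham tissue. Its shift of 2.64 ± 0.86 passed (adjusted p = 0.029), and adjusted p lay between 0.06 and 0.11 without infarct array 1 at 4 h, infarct array 1 or 2 at 24 h, or sham array 3 of either time. Cxcl2, a neutrophil attractant, had a shift of 2.0 ± 0.63 (adjusted p = 0.022), with 0.072 without infarct array 2 and 0.051 without sham array 2 at 24 h.

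Cxcl12, which holds leukocytes and progenitor cells in tissue, went the other way. It read 2545, 2305 and 2194 in infarct at 4 h and 1443, 844 and 711 at 24 h. In sham tissue it read 2108, 1407 and 1621 at 4 h and 3705, 2268 and 2015 at 24 h. The infarct arrays at 24 h lay below all sham arrays of that time, and the shift was -1.83 ± 0.28 (adjusted p = 1.4e-05). Of its 2 other probe sets, the one with the higher mean gave -1.52 (adjusted p = 8e-06). The other gene of the list that fell was Ccl11, which attracts eosinophils, named after its values were seen. Its infarct effect went from 2.03 to 0.41, a shift of -1.62 ± 0.44 (adjusted p = 0.008).

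Of 25 receptors for cytokines and chemokines, 11 rose and 0 fell, against 8.58% and 8.52% of all genes. Il4ra, the receptor chain shared by interleukins 4 and 13, had the smallest p of all named genes. It read 606, 561 and 518.8 in infarct and 625, 610.1 and 522 in sham tissue at 4 h, with overlapping groups. By 24 h it read 1364, 1879 and 1522 in infarct and 189, 175 and 183 in sham tissue, so that infarct tissue rose (1.43) and sham tissue fell (-1.47). The shift was 2.89 ± 0.27 (adjusted p = 8e-10), but a second probe set for the gene gave -0.37 (adjusted p = 0.32). Osmr, the receptor for oncostatin M, rose by 1.86 ± 0.23 (adjusted p = 2.7e-07), and Il1r2, the decoy receptor of interleukin 1, by 1.79 ± 0.36 (adjusted p = 0.00048).

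Many proteases and their inhibitors rose. Of 26 tested genes 13 rose and 1 fell, against 8.58% and 8.52% of all genes. The fall was F3, the tissue factor that starts clotting (-0.78). No gene of the list fell in 9 of the 12 fits that leave out 1 array. Among the metalloproteases and their TIMP inhibitors 7 of 12 rose and 0 fell. Mmp9, the gelatinase B of neutrophils and macrophages, read 744, 584 and 323 in infarct at 24 h and 15.4 to 31.2 on the other 9 arrays. Its shift was 3.09 ± 0.66 (adjusted p = 0.00087). Timp1, which inhibits it, read 619, 969.8 and 1249 in infarct and 488, 546 and 568 in sham tissue at 4 h. The values at 24 h were 7617, 7683 and 2685 in infarct and 362.6, 894 and 419.5 in sham tissue, with no overlap, and the shift was 2.59 ± 0.51 (adjusted p = 0.00041). Plaur, the urokinase receptor, had infarct effects of 2.43 at 4 h and 4.41 at 24 h and a shift of 1.98 ± 0.35 (adjusted p = 0.00012). Serpina3n, an inhibitor of leukocyte proteases, rose by 1.66 ± 0.31 (adjusted p = 0.00018). Mmp3, or stromelysin, had a shift of 1.38 ± 0.59 that did not pass (adjusted p = 0.11).

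Of 40 collagen and matrix genes tested, 5 rose and 1 fell, a share near the 17.1% of all genes, with a median shift of 0.03, and with 1 array left out the falls lay between 0 and 3. Tnc, or tenascin C, read 64.5, 62.2 and 58.4 in infarct at 4 h and 962, 1035 and 248 at 24 h, against 54.8, 122 and 43.6 in sham tissue at 24 h, with a shift of 2.29 ± 0.50 (adjusted p = 0.0012). Lox, which cross-links collagen, read 106, 79.9 and 95.4 in infarct at 4 h and 941, 749 and 702 at 24 h. No sham array exceeded 87.8, and the shift of Lox was 2.72 ± 0.57 (adjusted p = 0.00071), but 0.44 from its second probe set (adjusted p = 0.55). Vcan, the proteoglycan versican, rose by 1.61 ± 0.30 (adjusted p = 0.00021). Col1a1, the main chain of fibrillar collagen, had a shift of -0.74 ± 0.52 (adjusted p = 0.36), and Postn, or periostin, 0.38 ± 0.39 (adjusted p = 0.58); neither passed.

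Ankrd2, a stretch-responsive protein of the sarcomere, was among the most certain rises. It read 239, 286 and 218 in infarct and 288, 182 and 276 in sham tissue at 4 h, with overlapping groups. Its 24 h values were 1742, 2762 and 1662 in infarct and 179.8, 223 and 179 in sham tissue, with the 3 infarct arrays far above the rest. The shift was 3.10 ± 0.30 (adjusted p = 1.7e-09), and it was the only 1 of 27 sarcomere genes to rise, with 2 rises without infarct array 1 at 24 h. Its relative Ankrd1 had a shift of 0.006 ± 0.26 (adjusted p = 0.99). Of 33 actin and tubulin cytoskeleton genes 14 rose and 0 fell, against 8.58% and 8.52% of all genes. Tubb6, a beta tubulin that muscle makes during regeneration, read 1712, 1738 and 1479.7 in infarct and 733, 863 and 766 in sham tissue at 4 h. The 24 h arrays read 5689, 6856 and 3738 and 682, 517.2 and 439.8, apart at both times, and the shift was 2.17 ± 0.27 (adjusted p = 4.6e-07). Actn1, the alpha actinin of non-muscle cells, rose by 1.77 ± 0.34 (adjusted p = 0.00026).

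Genes of amino acid supply and chaperones of the endoplasmic reticulum belong to stress responses that cells start when protein synthesis is disturbed: in the integrated stress response the factor ATF4 turns on amino acid transporters and tRNA synthetases, and in the unfolded protein response other factors turn on chaperones. Of 40 tested genes of both responses 16 rose and 0 fell, against 8.58% and 8.52% of all genes. By role, 12 of 18 genes of amino acid supply and feedback rose, against 1 of 13 chaperones and folding enzymes and 3 of 9 transcription factors. Over the 12 fits that each leave out 1 array, the count lay between 8 and 12 for amino acid supply. For chaperones it lay between 1 and 5, with 5 without infarct array 3 and 2 without infarct array 1 at 24 h. For transcription factors it lay between 0 and 4, with 0 without infarct array 2 at 24 h or sham array 1 at 4 h, and 1 without infarct array 3 at 4 h, infarct array 1 at 24 h or sham array 2 at 24 h. Whether the roles differ was not tested.

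Slc7a5, which carries large amino acids into the cell, read 544, 593 and 576 in infarct and 476, 579.9 and 462 in sham tissue at 4 h. It then read, at 24 h, 1491, 1608 and 1009.8 in infarct and 517.1, 428 and 435 in sham tissue. The groups overlapped at 4 h and not at 24 h, and the shift was 1.29 ± 0.22 (adjusted p = 4.6e-05). Slc3a2, its partner in the membrane, rose by 1.57 ± 0.25 (adjusted p = 2.1e-05), and Asns, or asparagine synthetase, by 0.91 ± 0.17 (adjusted p = 0.00031). Of the tRNA synthetases, Aars, for alanine, had a shift of 0.85 ± 0.23 (adjusted p = 0.0074) and Gars, for glycine, 0.49 ± 0.15 (adjusted p = 0.021, and up to 0.09 with 1 array left out); both are named for the promoters below. Hspa5, the chaperone BiP, read 7933, 8584 and 8494 in infarct and 5522, 5149 and 6349 in sham tissue at 4 h. Values at 24 h were 13513, 10134 and 9355 and 6993, 6322 and 5707. It was higher in infarct tissue at both times with no overlap, and its shift of 0.22 ± 0.20 did not pass (adjusted p = 0.53). Ddit3, or CHOP, had a shift of 0.31 ± 0.21 (adjusted p = 0.34).

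Promoter stretches are shown for the DNA elements that the factors of these responses are known to bind. They come from RefSeq, build GRCm38.p6, lie upstream of the start site, run 5′ to 3′ along the gene's strand, and hold the matched element in capitals. The ATF4 composite element was searched as TGATGNAAT and TGATGCAAC, the ER stress element as CCAAT and CCACG with 9 bases of any kind between them, and the heat shock element as GAA, TTC and GAA, or TTC, GAA and TTC, with 2 bases of any kind between neighbours. Each was searched on both strands of 300 bases around the start, and matches of both heat shock forms can overlap.
Aars, chr8:111033693-111033772, plus strand: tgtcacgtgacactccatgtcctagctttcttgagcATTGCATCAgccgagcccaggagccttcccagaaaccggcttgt
Gars, chr6:55037921-55038000, plus strand: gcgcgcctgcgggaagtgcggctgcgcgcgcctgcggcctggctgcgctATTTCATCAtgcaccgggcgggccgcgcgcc
Hspa5, chr2:34771994-34772073, plus strand: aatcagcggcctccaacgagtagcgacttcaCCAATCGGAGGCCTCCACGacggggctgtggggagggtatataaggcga
Hsp90b1, chr10:86705503-86705582, minus strand: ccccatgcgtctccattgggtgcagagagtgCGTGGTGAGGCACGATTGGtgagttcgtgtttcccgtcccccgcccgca
Hspe1, chr1:55088030-55088109, plus strand: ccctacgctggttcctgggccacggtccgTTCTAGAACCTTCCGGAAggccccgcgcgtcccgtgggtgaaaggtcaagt
Aars and Gars, which rose, carry the ATF4 element on the reverse strand, and Hspa5 and Hsp90b1, chaperones that did not pass, carry the ER stress element. Of the 16 stress response genes that rose, 15 had a promoter in the table, of which 2 held the ATF4 element and 0 the ER stress element. Of the 24 that did not pass, 20 had a promoter, of which 2 held the ATF4 element and 6 the ER stress element. Among all 27025 genes of the table, 1.28% held the ATF4 element and 0.137% the ER stress element. A match is a description of these letters in this window. Hspe1, a mitochondrial chaperone whose shift fell, carries a heat shock element, described with the heat shock genes.

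**Figure D3:**
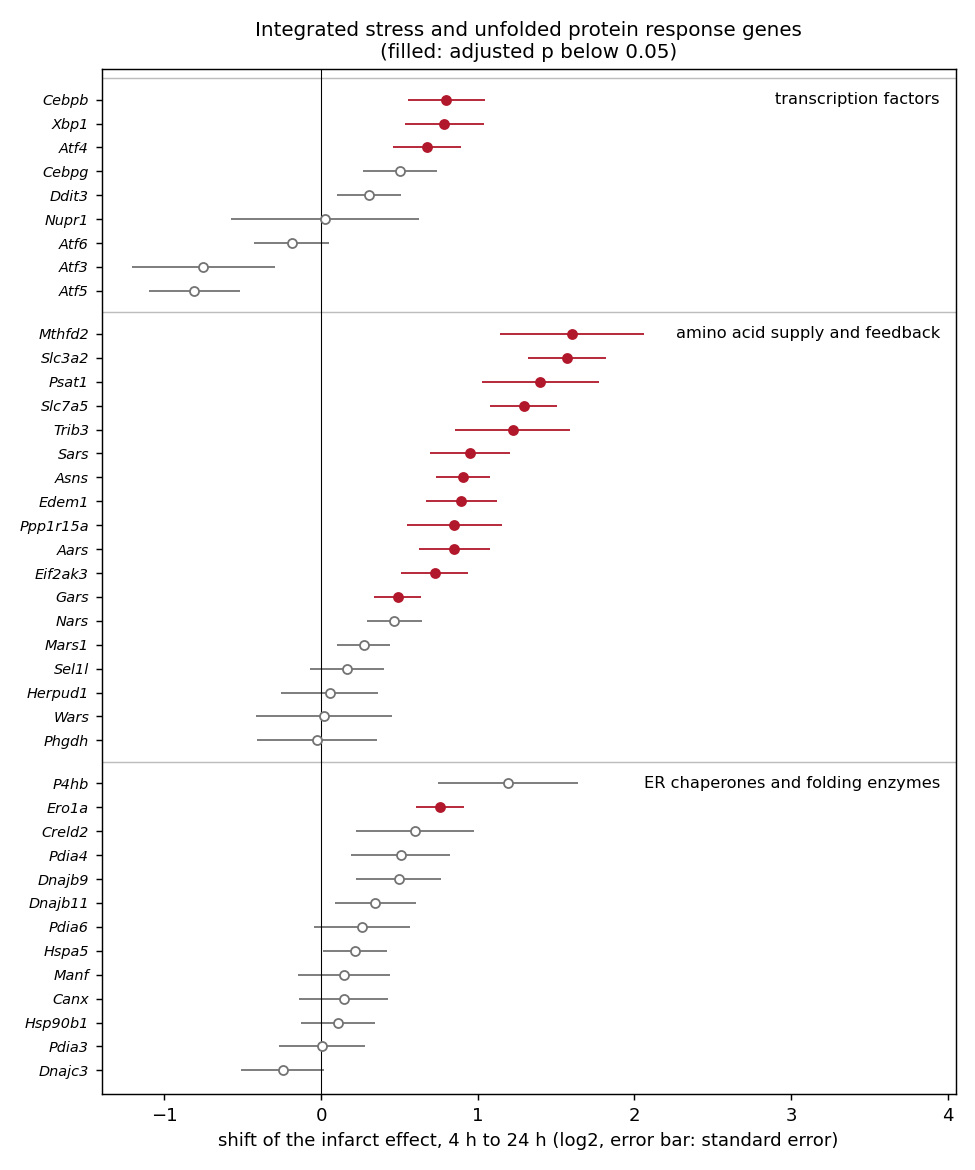
Shift of the infarct effect in log2 units, with its standard error, for the 40 tested genes of the integrated stress and unfolded protein responses, grouped by role; filled points passed. The amino acid supply group holds 12 filled points of 18, the chaperones 1 of 13.

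Ribosome making and ribosomal proteins were counted as separate lists. Of 30 genes of ribosome making and translation 14 rose and 0 fell, against 8.58% and 8.52% of all genes. Without infarct array 2 at 24 h, 9 rose. Nop56, a core protein of the particles that modify ribosomal RNA, read 309, 306 and 316 in infarct and 302, 333 and 296 in sham tissue at 4 h. At 24 h it read 927, 1014 and 552 in infarct and 265, 195 and 229 in sham tissue. The groups overlapped at 4 h and were apart at 24 h, with a shift of 1.62 ± 0.22 (adjusted p = 1.6e-06). Eif6, which keeps ribosomal subunits apart, rose by 1.44 ± 0.18 (adjusted p = 7.7e-07), and Fbl, the fibrillarin of the nucleolus, by 0.90 ± 0.17 (adjusted p = 0.00016). Of 24 ribosomal proteins 2 rose and 0 fell; 6 rose after quantile normalization, and between 0 and 2 with 1 array left out, with 0 without infarct array 2 at 24 h. Myc, a transcription factor that drives ribosome production, was higher in infarct tissue at both times and rose further: 559.9, 467 and 410.4 in infarct and 94.9, 105 and 91.7 in sham tissue at 4 h. By 24 h it read 985, 1126 and 917 and 38.5, 21.2 and 55.7. Infarct and sham arrays were apart at both times, and the shift was 1.78 ± 0.29 (adjusted p = 3e-05).

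Mycn, a relative of Myc, moved the other way. It read 150.4, 189 and 78.5 in infarct and 16.9, 9.5 and 8.8 in sham tissue at 4 h. The values at 24 h were 34.2, 73.7 and 38.9 in infarct and 199, 97.4 and 89.4 in sham tissue. Infarct tissue was above sham tissue at 4 h and below it at 24 h on all arrays, with effects of 1.64 and -0.87 (adjusted p = 0.0039 and 0.072) and a shift of -2.52 ± 0.56 (adjusted p = 0.0014), and sham tissue itself rose between the times (1.55 ± 0.40, adjusted p = 0.021).

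For a group of stress hormone targets, part of the shift lay in the sham arrays. Glucocorticoids, the adrenal stress hormones, switch on genes such as Fkbp5, Mt2 and Pdk4. Of 15 tested glucocorticoid targets 9 rose and 0 fell in the shift, against 8.58% and 8.52% of all genes, with a median of 1.27. Sham tissue fell from 4 h to 24 h in 6 of the 15 and infarct tissue rose in 5 and fell in 2. Fkbp5, a co-chaperone of the glucocorticoid receptor, read 1066, 1197 and 1195 in infarct and 2613, 2579 and 1991 in sham tissue at 4 h. Its 24 h values were 1924, 2605 and 2333 in infarct and 998, 927 and 1352 in sham tissue. The infarct effect thus crossed from -1.02 ± 0.23 to 1.01 ± 0.23 with no overlap at either time, a shift of 2.03 ± 0.32 (adjusted p = 2.1e-05).

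Pdk4, the kinase that turns glucose oxidation down, read 11354, 12038 and 12131 in infarct at 4 h and 10273, 12289.6 and 10640.3 at 24 h. In sham tissue it read 13702, 12212 and 12404 at 4 h and 1966, 3078 and 7045 at 24 h. The infarct arrays overlapped between times while sham tissue fell by 1.85 (adjusted p = 0.0018); the shift was 1.73 ± 0.51 (adjusted p = 0.015, and 0.077 without sham array 1 at 24 h). Cebpd, a transcription factor of the acute phase, fell in both tissues, more in sham: -0.54 in infarct and -1.97 in sham tissue, a shift of 1.43 ± 0.25 (adjusted p = 0.0001). Mt2, a metallothionein that binds zinc, had a shift of 1.75 ± 0.33 (adjusted p = 0.00026), with infarct tissue at 0.48 between the times (adjusted p = 0.13) and sham tissue at -1.27 (adjusted p = 0.0012). Cdkn1a, the cell cycle inhibitor p21, rose in infarct tissue (0.97) and fell in sham tissue (-1.06), with a shift of 2.03 ± 0.31 (adjusted p = 1.5e-05). The sources used here do not give the clock hour of sampling. Of 12 clock genes 1 rose and 3 fell, against 8.58% and 8.52% of all genes, with falls between 0 and 2 when 1 array was left out.

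**Figure D4:**
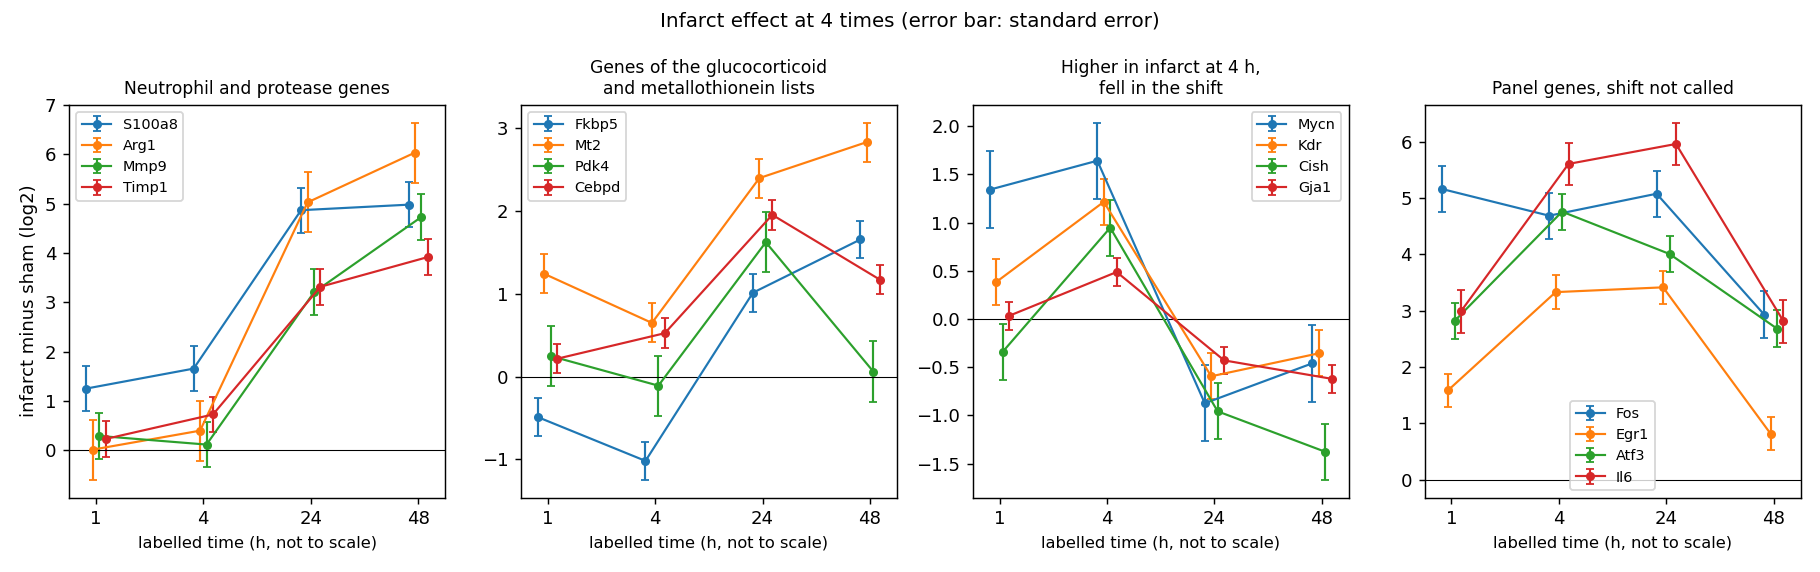
Infarct minus sham in log2 units at 1, 4, 24 and 48 h, with standard errors, for 16 genes in 4 panels. S100a8, Arg1, Mmp9 and Timp1 stay high at 48 h, Fkbp5 crosses from below 0 at 4 h to above 0 at 24 h, Kdr, Cish and Gja1 cross the other way, and Fos, Egr1, Atf3 and Il6 are above 0 at all 4 times.

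Of 30 immediate early genes, 19 were higher in infarct tissue at 4 h and 21 at 24 h, where 5.23% and 18.6% of all genes were. In the shift 4 rose and 1 fell (16.7% called, near the 17.1% of all genes), with falls between 0 and 3 when 1 array was left out. Fos, a subunit of the AP-1 factor, read 11801, 12465 and 9579 in infarct and 308, 359 and 541 in sham tissue at 4 h. The 24 h arrays read 3477, 5426 and 9383 and 59.3, 253 and 107. Infarct and sham tissue were apart at both times, both were lower at 24 h than at 4 h on all arrays, and the shift of 0.39 ± 0.58 did not pass (adjusted p = 0.71). Fosl1, another AP-1 subunit, rose by 2.36 ± 0.41 (adjusted p = 8.6e-05) from a called effect of 1.49 at 4 h. Il6, the interleukin that starts the acute phase, read 3373, 3833 and 3478 in infarct at 4 h and 2423, 4200.3 and 3233 at 24 h, against 3.9 to 75.1 in sham tissue, and its shift was 0.35 ± 0.54 (adjusted p = 0.72). Nor did the shift pass for Egr1 (0.085 ± 0.42, adjusted p = 0.93), Atf3 (-0.75 ± 0.45, adjusted p = 0.28), Socs3 (0.51 ± 0.33, adjusted p = 0.31) and Ccl2 (0.99 ± 0.58, adjusted p = 0.26). A p that misses the threshold does not show equal effects at both times.

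Of 25 tested heat shock chaperones 1 rose and 4 fell, near the 17.1% called among all genes, with 1 fall without infarct array 2 at 24 h and rises between 0 and 2 with 1 array left out. Hspa1a, the inducible HSP70, read 8731, 9343 and 6358 in infarct at 4 h and 11269.9, 15348 and 13319.8 at 24 h, against 151.9 to 249 in sham tissue, and its shift was 0.65 ± 0.67 (adjusted p = 0.57); its near copy Hspa1b can bind the same probes. Chordc1, a co-chaperone of HSP90, read 1170.2, 1060.1 and 1114 in infarct tissue at 4 h, against a mean of 764 ± 123 (SD, n = 3) in sham tissue. It then read, at 24 h, 997, 672.1 and 597 in infarct and 1223, 1232 and 1391 in sham tissue. Infarct was above sham at 4 h and below it at 24 h without overlap, with a shift of -1.27 ± 0.22 (adjusted p = 9e-05). Hspe1, the small mitochondrial chaperonin, fell by 0.62 ± 0.20 (adjusted p = 0.025, and 0.056 to 0.11 without infarct array 3 at 4 h, infarct array 2 at 24 h or sham array 3 at 24 h). The heat shock element was found in 2 of the 3 called heat shock genes with a promoter in the table, Hspe1 and Chordc1, in 3 of the 17 others and in 0.662% of all genes.

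Of the vessel genes, Kdr, the receptor on endothelial cells for the growth factor VEGF, read 1268, 1366 and 1456 in infarct and 668, 520.3 and 505 in sham tissue at 4 h. Values at 24 h were 529, 487 and 887 in infarct and 1225, 929.7 and 748 in sham tissue. Infarct tissue was higher at 4 h without overlap and overlapped sham tissue at 24 h, with infarct effects of 1.22 and -0.59 and a shift of -1.81 ± 0.34 (adjusted p = 0.00021). Vegfa, the ligand, named after its values were seen, read 2315, 1998 and 1948 in infarct and 690.3, 477 and 645 in sham tissue at 4 h. At 24 h it read 2006, 1330.1 and 1723 and 1789.5, 1595 and 1414, with overlap. Its infarct effect went from 1.73 to 0.061, a shift of -1.66 ± 0.45 (adjusted p = 0.0082), and sham tissue rose by 1.35 ± 0.32 (adjusted p = 0.012). Tek, the receptor of angiopoietins, had a shift of -0.81 ± 0.17 (adjusted p = 0.00085); of its ligands, Angpt1 had -0.89 ± 0.20 (adjusted p = 0.0012) and Angpt2, which can oppose it, 1.12 ± 0.27 (adjusted p = 0.0031).

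The endothelial list as a whole had no common direction: 4 of 22 genes rose and 4 fell, against 8.58% and 8.52% of all genes. There were 2 rises without sham array 3 at 24 h or infarct array 1 at 4 h. Summed endothelial markers lay between 7697 and 9013 in infarct tissue at 24 h, 8423 to 8909 at 4 h, and 5578 to 7358 in sham tissue. Of 14 smooth muscle and pericyte genes 0 rose and 4 fell, with 2 falls without infarct array 1 or 2 at 24 h or sham array 2 at 4 h. Rgs5, a signalling regulator of pericytes, read 1071, 1049 and 959 in infarct and 1133, 948 and 1079 in sham tissue at 4 h. By 24 h it read 416, 357 and 228 in infarct and 1062, 1416 and 1449.8 in sham tissue. The groups overlapped at 4 h and were apart at 24 h, with a shift of -1.82 ± 0.23 (adjusted p = 7.8e-07). Myh11, the myosin of smooth muscle, read 139, 110.4 and 250.5 in infarct and 459, 571 and 869.5 in sham tissue at 24 h, and had a shift of -2.31 ± 0.41 (adjusted p = 0.0001). Summed smooth muscle markers were 3500 to 5190 in infarct tissue at 24 h, 4843 to 7273 at 4 h and 2867 to 3256 in sham tissue, so those markers as a sum stayed above sham.

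Cish and Socs2, feedback inhibitors of growth hormone and cytokine receptors, fell. Cish read 1244, 1124 and 1165 in infarct and 582, 466 and 748 in sham tissue at 4 h. The values at 24 h were 671.6, 772 and 698 and 1314, 1627 and 1357, so infarct tissue passed from above to below sham tissue without overlap. The shift of Cish was -1.91 ± 0.41 (adjusted p = 0.001) and that of Socs2 -1.28 ± 0.27 (adjusted p = 0.00086). Slco5a1, an orphan member of the organic anion transporters, crossed in the same way, with effects of 0.97 ± 0.19 and -0.92 ± 0.19 and a shift of -1.89 ± 0.27 (adjusted p = 4.3e-06). Other large falls were in Frmd5 (-2.33 ± 0.41), Clec3b, or tetranectin (-2.20 ± 0.36), Cavin2, a coat protein of caveolae (-2.20 ± 0.31), Rarg, a retinoic acid receptor (-2.15 ± 0.38), Gmnn, or geminin, which limits DNA replication (-1.89 ± 0.33), and Thy1, a surface protein of fibroblasts and T cells (-1.83 ± 0.53). Their adjusted p-values ran from 3.7e-06 for Cavin2 to 0.014 for Thy1.

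Among heart muscle genes, ion channels and a junction protein fell. Kcnd2, a potassium channel of the transient outward current, read 444, 435 and 485 in infarct and 353, 294 and 478 in sham tissue at 4 h. Its 24 h values were 47.7, 17.5 and 83.2 in infarct tissue, below all other arrays, and 344, 241 and 208 in sham tissue, with a shift of -2.01 ± 0.46 (adjusted p = 0.0019). Cacna1c, the pore of the L-type calcium channel, had a shift of -1.10 ± 0.28 (adjusted p = 0.0043), and Cacnb2, its accessory subunit, -1.44 ± 0.37 (adjusted p = 0.0057). Gja1, the gap junction protein connexin 43, read 13067, 13289.8 and 13535 in infarct and 9169, 9314 and 9942 in sham tissue at 4 h. The 24 h arrays read 9881, 9471 and 7419 and 11298, 11949 and 12585. Infarct was above sham at 4 h and below it at 24 h without overlap, with a shift of -0.92 ± 0.20 (adjusted p = 0.0013). Of 21 genes of calcium handling and channels 0 rose and 5 fell, against 8.58% and 8.52% of all genes.

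Ldb3, a scaffold of the Z-disc, read 7381, 6904 and 7254 in infarct at 4 h and 3077, 2001 and 3762 at 24 h, against 9159, 10846 and 10009 in sham tissue at 24 h. All 3 infarct arrays at 24 h were below the rest, with a shift of -1.57 ± 0.37 (adjusted p = 0.0027). Of 27 sarcomere genes 1 rose and 4 fell, 18.5% called and near the 17.1% of all genes. Without infarct array 2 at 24 h, 1 fell. Myh6, the main myosin of the adult mouse ventricle, had a shift of -0.37 ± 0.58 (adjusted p = 0.73), and Atp2a2, the calcium pump SERCA2, -0.49 ± 0.36 (adjusted p = 0.4). Nkx2-5, a factor that keeps heart muscle identity, fell by 0.89 ± 0.25 (adjusted p = 0.011). Corin, the protease that activates natriuretic peptides, fell by 1.39 ± 0.36 (adjusted p = 0.006), while Nppa, the atrial natriuretic peptide, rose by 1.40 ± 0.44 (adjusted p = 0.022, but 0.059 without sham array 1 at 24 h and 0.067 without sham array 3 at 4 h). Without sham array 2 at 24 h, which had the high sum of atrial markers, the shift of Nppa was 1.57. Nppb, the B-type peptide, was higher in infarct tissue at both times and had a shift of 0.46 ± 0.40 (adjusted p = 0.48).

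Genes of mitochondrial energy supply had small negative shifts, few of which passed. Of 65 genes of oxidative phosphorylation 59 had a shift below 0, with a median of -0.38, where 3361 of all 6668 genes were below 0. Only 6 of the 65 passed, all falls, near the 8.52% of all genes; 3 fell without infarct array 2 at 24 h, sham array 3 at 24 h or sham array 1 at 4 h, and 14 in a fit of the 12 arrays alone. At 4 h 1 of the 65 was lower in infarct tissue and at 24 h 40 were, where 6.69% and 24.0% of all genes were lower. Of 23 genes of the citric acid cycle 5 fell, with 2 after quantile normalization and 1 without infarct array 2 at 24 h; the count lay between 1 and 6 with 1 array left out. Of 35 genes of fatty acid use 7 fell and 2 rose, with 3 falls without infarct array 2 at 24 h and 4 without sham array 3 at 24 h, sham array 1 at 4 h, infarct array 1 at 24 h or infarct array 3 at 4 h. Ppargc1a, the coactivator that drives mitochondrial genes, read 242, 309 and 278 in infarct at 4 h and 63.8, 50.1 and 182 at 24 h, against 244, 309 and 491 in sham tissue at 24 h. The infarct arrays at 24 h were below all others, with a shift of -1.29 ± 0.35 (adjusted p = 0.0075). The 2 rises were Plin2, which coats lipid droplets (1.88 ± 0.29, adjusted p = 1.9e-05), and Angptl4, which inhibits lipoprotein lipase (2.44 ± 0.36, adjusted p = 8.3e-06).

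Of 32 glycolysis and hypoxia genes 10 rose and 4 fell, against 8.58% and 8.52% of all genes. There were 6 rises without infarct array 2 at 24 h, and 2 falls without that array, infarct array 1 or sham array 1 at 24 h. Slc2a1, the glucose transporter GLUT1, read 319, 330.3 and 295 in infarct at 4 h and 1637, 1748 and 1527 at 24 h, with 160.5 to 217 in sham tissue. Its shift was 2.18 ± 0.38 (adjusted p = 7.5e-05). Pfkfb2, the heart form of the enzyme that sets the pace of glycolysis, had a shift of -1.26 ± 0.30 (adjusted p = 0.0028). Of 37 genes of TGF-beta, growth factor and Wnt signalling 6 rose and 2 fell, 21.6% called against 17.1% of all genes. Their median shift was 0.07, and with 1 array left out rises lay between 4 and 6 and falls between 1 and 3. Ereg, or epiregulin, read 266, 291 and 243 in infarct at 24 h and no more than 16.5 on any other array. Its shift was 2.53 ± 0.27 (adjusted p = 2.5e-08). Inhbb, a chain of activin B, rose too (2.35 ± 0.38, adjusted p = 2.7e-05).

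Several lists had 0 calls: 40 genes of the cell cycle, 27 interferon-induced genes, 8 of MHC class II, 8 skeletal muscle markers and 6 red cell markers, in the limma fit at an adjusted p below 0.05. At an unadjusted p below 0.05 the counts were 3, 4, 0, 0 and 2 in that order. In the fit of the 12 arrays alone 1 cell cycle gene rose, and 1 interferon-induced gene rose and 2 fell. When the added value was 0.05 times the median, 1 interferon-induced gene rose. With 1 array left out, 1 interferon-induced gene fell without infarct array 1 at 24 h and 1 red cell marker without sham array 3 at 24 h. In all, 40 lists with 921 tested genes were counted, of 1268 genes written; many genes stand in more than 1 list.

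**Figure D5:**
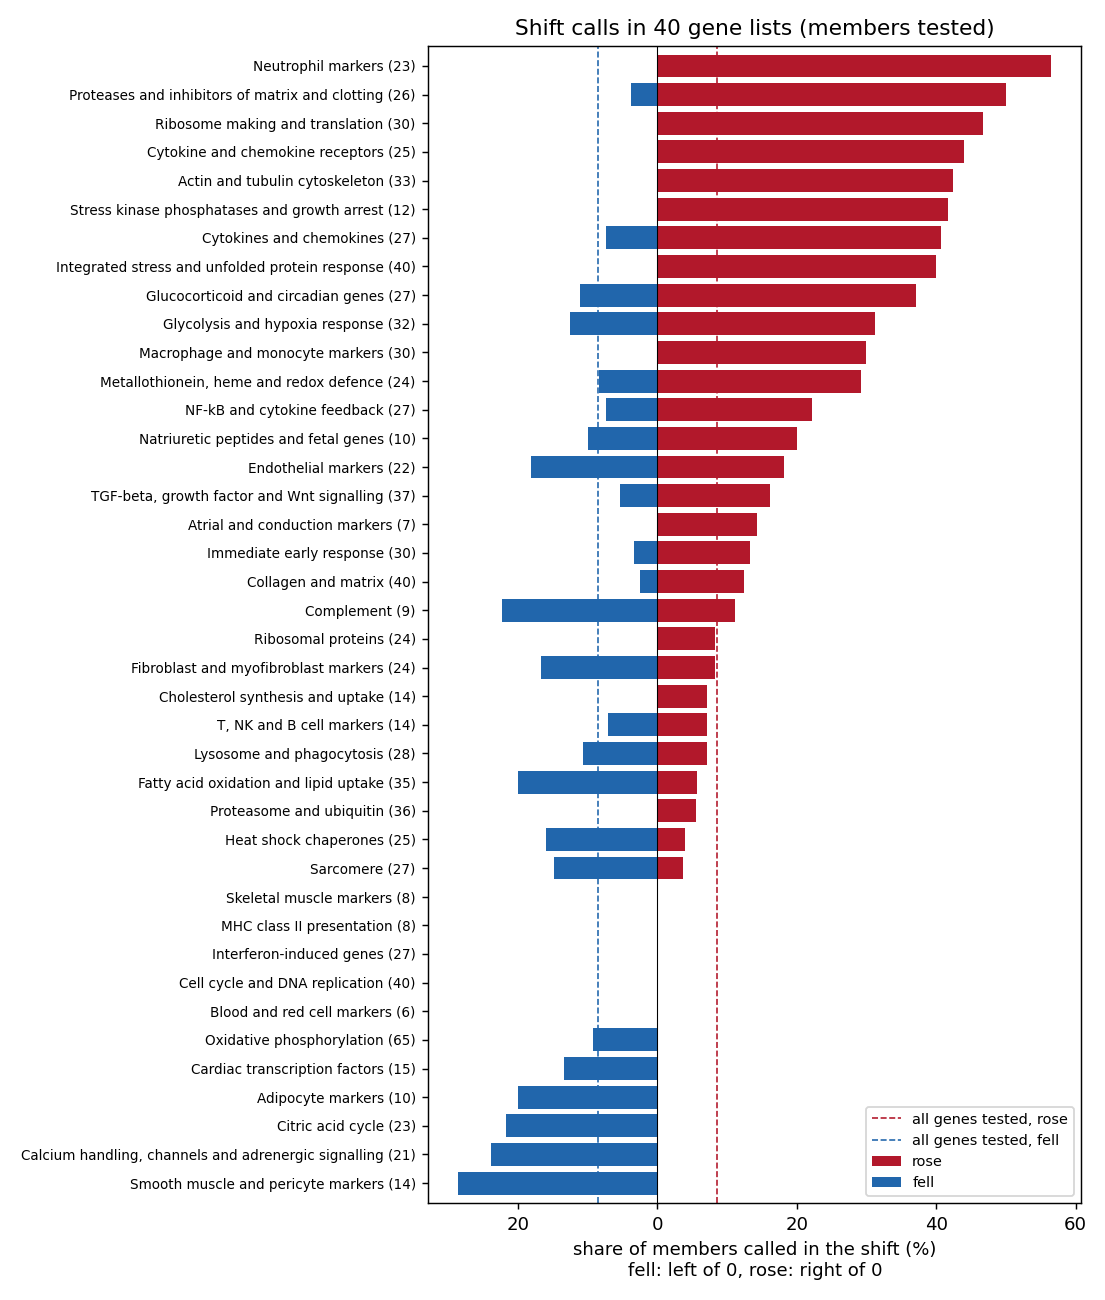
Share of the tested members of each of 40 gene lists that rose (right) or fell (left) in the shift, with the number tested in parentheses and dashed lines at the shares of all 6668 genes, 8.58% and 8.52%. Neutrophil genes, proteases, ribosome making, receptors and the cytoskeleton have the highest shares of rises, and smooth muscle genes and calcium handling and channels the highest shares of falls.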

How the data were processed

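Affymetrix mouse expression arrays measured total RNA of left ventricle pieces. The deposited values are linear intensities per probe set, and from the values each array had been brought to a trimmed mean of 499.26 to 499.85 (12 arrays) before deposit; the software is not given in the sources used here. Of 12488 probe sets, 10833 had 1 gene in the platform annotation, 396 several and 1193 none, and 66 were controls. Intensity plus 45.6, which is 0.25 times the median, was put on the log2 scale. Genes at 108.2 or more on at least 3 arrays were kept, with the probe set of highest mean per gene. A gene near background elsewhere could thus be kept through infarct arrays in which it was high. limma 3.58.1 in R 4.3.3 was fitted to all 59 arrays in 23 groups, with the title number as a random block (correlation 0.15), and p-values were adjusted by Benjamini-Hochberg over the 6668 genes. No title number is shared among the 12 arrays, but some of the 12 share theirs with remote or sham lower arrays of the same time. Over the 17 infarct and remote pairs of the series, deviations of arrays with the same number correlated between -0.10 and 0.42 (median 0.04). The fit was tested on simulated data for the shift over 6668 genes, with 50 genes changed at each size and no shift in the others. It found 18% of the genes given a 0.5 log2 change, 58% at 1, 96% at 2 and 100% at 3, and it called 6 genes that had none. In the real data 17.1% of genes were called, so these rates need not hold there. The number of arrays limits the precision.

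The named genes are the 14 largest rises and 14 largest falls that passed in the full fit and without each of the 12 arrays. To these were added up to 4 members of each list by smallest adjusted p, and a fixed panel. Not every gene of this set is described above, some panel genes among them. Those named otherwise are Aars, Gars, Hsp90b1, Vegfa, Ccl11, F3, Cat, Prdx2 and Txnrd1. The members and lists were chosen with earlier results of these data known. Alternatives were other added values, quantile normalization, no filter, every probe set, no block, only the 4 groups, other sham controls, an intensity trend and each array left out. Promoter letters come from RefSeq, build GRCm38.p6, 250 bases before to 50 after the start.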

Additional observations from a re-analysis of the deposited data

Results flagged for a closer look

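The infarct effect differed between 4 h and 24 h for 572 genes that rose and 568 that fell, by the test of the difference itself in limma. Among the named genes, 7 had called effects in opposite directions at both times. Fkbp5 went from lower to higher in infarct tissue, with a shift of 2.03. Chordc1 (-1.27), Cish (-1.91), Gja1 (-0.92), Kdr (-1.81), Slco5a1 (-1.89) and Tek (-0.81) went from higher to lower.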

How the results depend on the processing

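With the sham lower array of each time as the only control, 154 genes rose and 86 fell, 64.2% rises against 50.2% in the full fit; this control is 1 array per time, assumed to vary like the other groups, and 80 of 132 called named genes missed the threshold. With 1 array left out, rises lay between 404 and 652, falls between 358 and 641, calls of the 4 h effect between 522 and 595 (arrays of 4 h only) and of the 24 h effect between 2323 and 2734 (arrays of 24 h only). The lowest counts of the shift were without infarct array 2 at 24 h, and the lowest of the 4 h effect without infarct array 2 at 4 h. Without the replicate block, 574 genes rose and 574 fell, and all 132 calls held. Quantile normalization gave 546 and 566, no filter 562 and 531, and only the 4 groups 495 and 489. All 132 kept their direction in every alternative that used the same probe set per gene. The fit of every probe set was not part of that count. A second probe set went the other way for Il4ra, as given above, and for Cox4i1 (0.23, against -0.84 in the main fit). Of the tested genes, 621 passed in the full fit and without each of the 12 arrays. The number of arrays limits small shifts.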

Other observations

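Of 6 genes of metal and heme handling 3 rose and 0 fell. Of 18 thiol and peroxide enzymes 4 rose and 2 fell, against 8.58% and 8.52% of all genes. The falls were Cat, or catalase (-1.14 ± 0.29, adjusted p = 0.0045), and Prdx2, a peroxiredoxin (-0.61 ± 0.18, adjusted p = 0.018), by limma, and 1 fell without infarct array 1 or 2 at 24 h, sham array 3 at 24 h or sham array 1 at 4 h. Txnrd1, the thioredoxin reductase, rose by 1.12 ± 0.26 (adjusted p = 0.0025). These 3 genes were named after their values were seen.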
